A study of Macaca mulatta with 24 samples.

Results

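The comparison was of wood smoke with filtered air after 5 consecutive days of exposure, in rhesus macaque airway epithelial cells. It used 8 of the 24 libraries of the series, 4 of smoke and 4 of air, and 13165 of the 35432 genes in the table, those with a value of 10 or more in at least 4 of the 8 libraries. The cells were primary cells of the trachea and bronchi of adult female animals, grown on porous membranes with air above and medium below, a medium that contained retinoic acid, which both groups received. Smoke cultures were exposed to diluted whole wood smoke for 6 hours a day for 5 days, and air cultures to filtered air on the same schedule. Cells of the same 4 animals, S1 to S4, made up both groups, so each smoke library had an air library of its own animal, and differences were taken within animals. The animals were 5463, 2930, 2238 and 1128 days old in the order S1 to S4, and age cannot be told apart from animal. There was 1 library per animal and exposure, so the errors below draw on differences between animals and not between cultures of an animal.

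The airway epithelium is a layer of basal progenitors, secretory cells and multiciliated cells that meets inhaled particles and gases first. Smoke from burning wood carries polycyclic aromatic hydrocarbons and reactive aldehydes. Such hydrocarbons bind the aryl hydrocarbon receptor (AHR), which induces enzymes such as CYP1A1 and CYP1B1, and electrophiles release the transcription factor NRF2, which induces antioxidant and detoxifying enzymes. Protein damage is met by chaperones under heat shock factor in the cytosol and under the unfolded protein response in the endoplasmic reticulum (ER).

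Values are normalized read counts, which are not divided by gene length, so levels are compared between libraries and not between genes. The air library of S1 differed from the other 7 of the comparison before any gene was tested. Its median correlation with the other 5-day libraries was 0.858, against 0.935 to 0.956 for those, and its approximate depth was 9.46 M reads, the lowest of the 24. Mitochondrially encoded genes held 8.49% of its values and cytosolic ribosomal protein genes 3.64%, against 2.95 to 4.97% and 1.65 to 1.97% in the other 5-day libraries. Across the other 23 libraries of the series these shares were 2.95 to 8.82% and 1.41 to 1.99%. The 8.82% was in the air library of S1 after 1 day, so a high mitochondrial share was not particular to the 5-day library. Results are therefore given over 4 pairs and with pair 1 left out. Smoke libraries were also deeper than air libraries, at 13.1 to 15.9 M reads in smoke against 12.4 to 12.8 M in the air libraries of S2 to S4. Depth and exposure did not overlap and cannot be told apart.

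Over 4 pairs no gene passed the test. The test was limma on log2(value + 1) with animal as a block, two-sided, and a gene was called at a p under 0.05 after Benjamini-Hochberg adjustment across the 13165 genes. The lowest adjusted p was 0.608, the genes called were 0.00% in each direction, and 776 had an unadjusted p under 0.05. Without pair 1, 645 genes were called (4.90%), 274 higher (2.08%) and 371 lower (2.82%) in smoke. The changes were small, with a median absolute log2 difference of 0.482 among the 645 genes and 0.151 among all genes tested, and 38 of them reached 2-fold, 23 higher and 15 lower. Below, rose and fell are used of genes called in pairs S2 to S4, and values are listed in the order S1 to S4. Log2 differences carry their SE from the fit of these 3 pairs, and adjusted p values are from this fit unless another is named. In limma each gene's variance is drawn toward a trend over all genes, here with 2 residual and 9.95 prior degrees of freedom. An SE can therefore be smaller or larger than the spread of the 3 differences of its gene. Over the 4 pairs the adjusted p was 0.608 for RSRP1 and 0.800 or more for every other gene named. With library totals made equal the split of the calls in pairs S2 to S4 turned, to 336 higher and 289 lower of 625. With a further animal left out the count was 1084 without S2, 783 without S3 and 359 without S4. The calls rest on the pairing and on the filter. With animal taken out of the model, 0 genes were called in pairs S2 to S4, and 783 had an unadjusted p under 0.05. Without the filter on low values 0 of 19969 genes were called there, and 2783 had an unadjusted p under 0.05.

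Differences within animal S1 were several times wider than in the others. In S1, 4552 genes (34.6%) differed by 2-fold or more between smoke and air, against 396 (3.01%) in S2, 541 (4.11%) in S3 and 339 (2.58%) in S4. Pair 1 took no part in the calls of pairs S2 to S4, and of the 645 genes 340 (52.7%) had the same sign in S1, against 6064 (46.1%) of all genes tested. The shares differed by direction, at 169 of the 274 higher genes and 171 of the 371 lower genes. The median S1 difference was 0.214 over the higher genes, against 0.478 in pairs S2 to S4, and 0.131 over the lower genes, against −0.485. The S1 pair thus had a positive median among the lower genes.

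**Figure D1:**
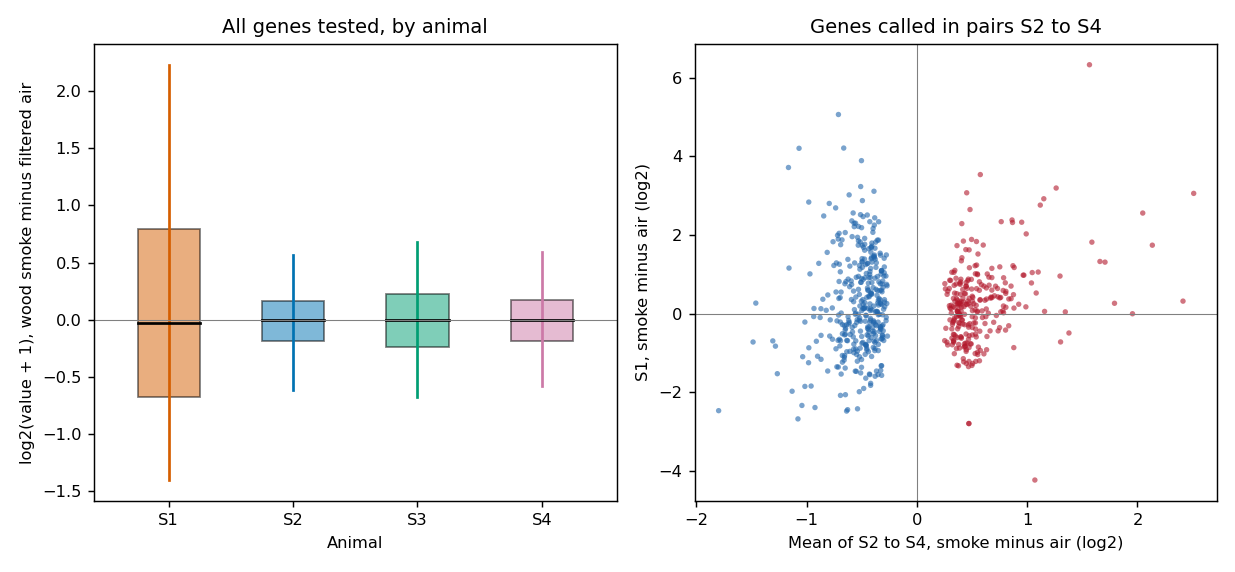
Left, log2 differences of wood smoke minus filtered air over all 13165 genes tested, 1 box per animal, with the median as a line, the box from the 25th to the 75th percentile and the vertical line from the 5th to the 95th. Right, each of the 645 genes called in pairs S2 to S4, with its mean difference in those pairs on the x axis and its difference in S1 on the y axis. The S1 box is the widest, and the genes lower in S2 to S4 lie on both sides of 0 in S1.

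In 468 genes (3.55%) the 4 smoke libraries did not overlap the 4 air libraries, 248 above (1.88%) and 220 below (1.67%). This count uses S1 as well, and 122 of the genes called in pairs S2 to S4 were among them, 67 of the higher and 55 of the lower genes. For the genes described next it is said whether the 4 smoke and 4 air values overlapped. This is a description and not a further test, since 6 of the 8 libraries are those that gave the calls. Some genes would separate 4 from 4 libraries without any effect of smoke, and that share was not worked out. Calls in a gene list are to be read against the 2.08% higher and 2.82% lower of all genes tested.

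Some genes of the AHR response rose, and others did not pass. CYP1B1 (ENSMMUG00000013945), a cytochrome P450 induced through AHR, had 303, 148, 311 and 334 normalized counts in the smoke libraries of S1 to S4, against 35.5, 65.1, 31.0 and 38.7 in the air libraries. All smoke values lay above all air values, with S2 the lowest in smoke and the highest in air. CYP1B1 was 5.70-fold higher in pairs S2 to S4 (log2 2.51 ± 0.31, adjusted p = 0.00181) and stood at log2 2.65 ± 0.39 over 4 pairs. CYP1A1, the classical AHR target, was under the filter, at 7.86, 2.99, 2.87 and 3.15 in smoke, against 0, 1.05, 0 and 0 in air. These are a few reads per library. CYP1A1 was higher in 4 of 4 animals, and an exact two-sided sign-flip test over the 4 pairs gave p = 0.125, the smallest it can give.

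Of the 7 AHR response genes tested, 3 rose and 0 fell, against 2.08% and 2.82% of all genes, but the list's median was −0.0815 in pairs S2 to S4. Beside CYP1B1 these were NQO1, a quinone reductase, and ALDH3A1, an aldehyde dehydrogenase that clears reactive aldehydes. NQO1 read 466, 827, 549 and 575 in smoke, against 328, 588, 353 and 502 in air. It was higher in smoke in every animal although the groups overlapped (log2 0.44 ± 0.10, adjusted p = 0.0301). ALDH3A1 read 76055, 25096, 78782 and 43488 in smoke, against 101420, 14556, 38749 and 28618 in air. Its smoke level was higher in S2, S3 and S4 (log2 0.80 ± 0.09, adjusted p = 0.000817) and lower in S1 (log2 −0.42). The receptor gene AHR itself stood at log2 −0.38 ± 0.11 (adjusted p = 0.0752), its repressor AHRR at −0.26 ± 0.08 (adjusted p = 0.0743) and the ADP-ribosyltransferase gene TIPARP, another target, at −0.08 ± 0.08 (adjusted p = 0.616). None of these 3 passed, and AHRR was lower in smoke in 4 of 4 animals, while the S1 pair was at log2 1.03 for AHR and 1.12 for TIPARP.

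Among 31 NRF2 antioxidant genes 22 were above 0 in pairs S2 to S4 (median 0.102). Of the 31, 7 rose and 0 fell, against 2.08% and 2.82% of all genes. They were NQO1, GPX2, AKR1B1, AKR1C1, AKR1C2, PGD and PRDX1, which reduce quinones, peroxides, aldehydes and ketones or, for PGD, make NADPH. GPX2, a glutathione peroxidase, read 1097, 602, 1076 and 962 in smoke, against 1154, 435, 618 and 629 in air (log2 0.63 ± 0.09, adjusted p = 0.00453). S2, S3 and S4 each had more in smoke, and in S1 the 2 values were close (log2 −0.07). In S1 the list's median was −0.239 and 1 of the 7 genes, NQO1, had the same sign. AKR1C1 and AKR1C2 are close paralogs whose reads the estimation may have divided between them. HMOX1, a haem oxygenase gene under NRF2, was at 74.2, 40.0, 82.3 and 73.9 in smoke, against 103, 109, 92.0 and 104 in air. Every smoke value was below every air value, in a gene that did not pass (log2 −0.69 ± 0.23, adjusted p = 0.102). Of 24 xenobiotic enzymes 1 rose, the ALDH3A1 already given, and 0 of 9 metallothionein and zinc transporter genes were called. Enzymes of this kind outside the lists went both ways, and those named here were picked after their values were seen. UGT1A1 (log2 0.54), PTGR1 (0.34) and ADH1B (0.34) rose, and CYP3A5 (−0.60) and CYP2U1 (−0.56) fell. In S1 they were at log2 1.24, 0.52, 1.05, −0.53 and 0.01 in that order.

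Some genes that respond to or clear retinoic acid fell. CYP26A1 (ENSMMUG00000010881), which degrades retinoic acid and is itself induced by it, read 1044, 985, 827 and 745 in smoke, against 2227, 1994, 2091 and 1256 in air. The groups did not overlap, and in every animal the smoke value was the lower, 2.05-fold in pairs S2 to S4 (log2 −1.04 ± 0.10, adjusted p = 0.000468) with log2 −1.05 ± 0.14 over 4 pairs. Of 16 retinoid genes tested, 4 fell and 1 rose. The other falls were CYP26B1 (log2 −1.07 ± 0.25, adjusted p = 0.0332), a second degrading enzyme, and the receptor genes RARB (log2 −0.50 ± 0.10, adjusted p = 0.0183) and RARG (log2 −0.33 ± 0.08, adjusted p = 0.0427).

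Pair 1 split the retinoid genes. CYP26B1 had 47.2, 30.9, 41.2 and 71.6 in smoke, against 1.61, 50.4, 157 and 109.8 in air, and RARB 319, 256, 322 and 288 in smoke, against 69.1, 339, 483 and 411 in air. For both, the 5-day air library of S1 held the lowest value of the 8, so that the S1 difference was positive (log2 4.21 and 2.19), and over 4 pairs they stood at log2 0.25 ± 0.98 and 0.17 ± 0.50. The gene that rose was ALDH1A3, which makes retinoic acid, at 3622, 6309, 1493 and 1975 in smoke, against 1169, 3619.9, 1346 and 1516 in air (log2 0.44 ± 0.10, adjusted p = 0.0317), higher in smoke in 4 of 4 animals. With 1 more animal left out, ALDH1A3 and RARG lost their calls without S2 (adjusted p = 0.0858 and 0.110), CYP26B1 without S3 (0.130) and RARB without S4 (0.0661). CYP26A1 kept its call in each omission.

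Several genes of RNA processing differed in the same direction in all 4 animals. RSRP1 (ENSMMUG00000002970), which codes for an arginine- and serine-rich protein, had 121, 141, 152 and 218 normalized counts in smoke, against 674, 573, 482 and 719 in air. No smoke value came near an air value. It fell 3.47-fold in pairs S2 to S4 (log2 −1.80 ± 0.11, adjusted p = 1.92e-05), and its difference over 4 pairs, log2 −1.96 ± 0.19, had the lowest adjusted p of that fit. EIF4A2, an RNA helicase of translation initiation, read 3162, 3572, 3425 and 3029 in smoke, against 5576, 5498, 5499.6 and 5232 in air. Within each group its values were within a narrow range, and the groups were far apart (log2 −0.70 ± 0.07, adjusted p = 0.000468). Its paralog EIF4A1 rose in S2 to S4 (log2 0.30 ± 0.06, adjusted p = 0.0238), with 6123, 5728, 6503 and 6139.7 in smoke, against 6826, 4750, 5151 and 5006 in air, and was lower in smoke in S1. EIF4A1 lost its call without S4 (adjusted p = 0.0910).

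Several genes of heterogeneous nuclear ribonucleoproteins (HNRNP) and SR splicing factors also moved, in both directions. Many of these proteins regulate their own messenger RNA by alternative splicing, which values per gene do not separate. Of 33 such genes tested, 3 rose and 4 fell. HNRNPDL rose, with 1448, 1137, 1310.1 and 1121 in smoke, against 650.3, 677, 862 and 695 in air (log2 0.68 ± 0.08, adjusted p = 0.00108). SRSF2 rose, with 985, 809, 1043 and 940.4 in smoke, against 687, 530.3, 501 and 558 in air (log2 0.81 ± 0.10, adjusted p = 0.00142), and HNRNPD rose as well (log2 0.47 ± 0.08, adjusted p = 0.0104). In all 3 the smoke values lay above all air values. HNRNPH3 fell, with 1204, 1387, 1259 and 1279 in smoke, against 1728, 2134, 2040.5 and 1975 in air (log2 −0.65 ± 0.07, adjusted p = 0.000817), again without overlap. TRA2A, a splicing activator, fell (log2 −0.57 ± 0.08, adjusted p = 0.00596) but was at log2 0.10 in S1. HNRNPC and SRSF10 fell too (log2 −0.31 and −0.56), and were at log2 −0.55 and 1.29 in S1. Of the called genes of this list 5 had the same sign in S1, and TRA2A and SRSF10 did not.

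Of 24 further SR-related genes of nuclear speckles 4 fell and 0 rose, and in all 8 libraries 5 of the 24 lay below air without overlap and 1 above, against 1.67% and 1.88% of all genes. NKTR, a cyclophilin with SR repeats, read 253, 244, 248 and 251 in smoke, against 409, 349, 390.5 and 353 in air (log2 −0.55 ± 0.10, adjusted p = 0.014), and its smoke values hardly varied between animals. RBM39, a splicing cofactor, fell in S2 to S4 (log2 −0.45 ± 0.07, adjusted p = 0.00712), while its air value in S1, 879.6, was far under the 1639, 1663 and 1687 of the other air libraries. The 4 that fell were RSRP1, NKTR, RBM39 and RBM5, and the last 2 were higher in smoke in S1 (log2 0.42 and 0.22). The list's median was −0.14 in pairs S2 to S4 and −0.46 in S1.

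**Figure D2:**
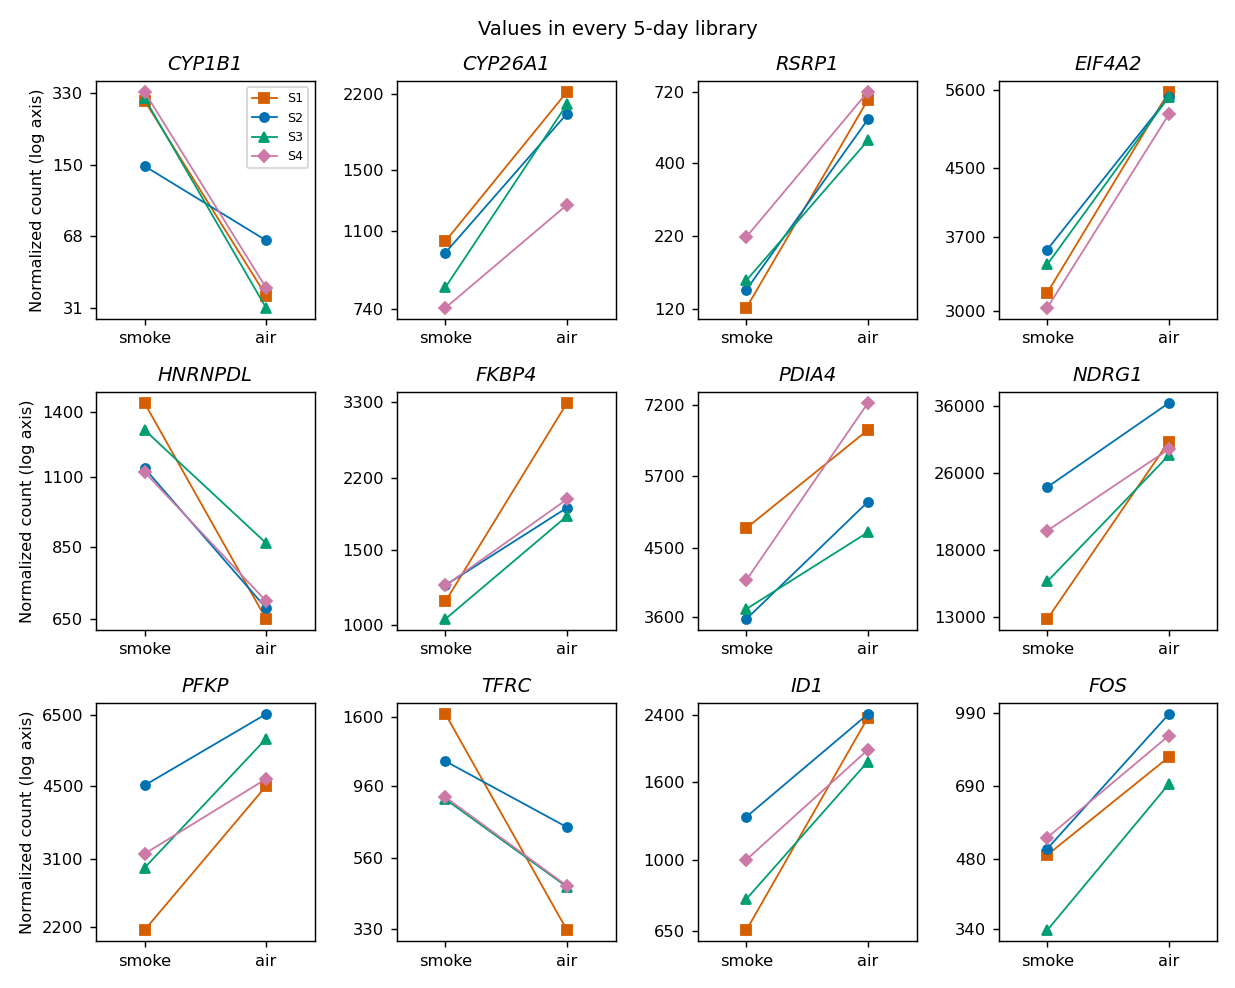
Normalized counts of 12 genes in the 8 libraries, with smoke left and air right in each panel, 1 line per animal (S1 to S4) and a log axis with its own range per gene. In every panel all 4 lines run the same way. Lines of CYP1B1, HNRNPDL and TFRC run down from smoke to air, and those of the other 9 genes run up.

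A part of the chaperone genes fell. Of 28 heat shock and HSP90 cochaperone genes, 10 fell and 1 rose, against 2.82% and 2.08% of all genes, with a median of −0.172. FKBP4, a cochaperone of HSP90 and steroid receptors, read 1137, 1239.7, 1034 and 1238 in smoke, against 3291, 1877, 1795 and 1964 in air (log2 −0.69 ± 0.07, adjusted p = 0.000817). The smoke values were close together and all under the air values, of which S1 was the highest. HSPB1, a small heat shock protein, read 595, 1168, 808 and 892 in smoke, against 3309, 1744, 1077 and 1688 in air (log2 −0.64 ± 0.09, adjusted p = 0.00569), also lower in smoke in 4 of 4 animals, with the smoke and air ranges overlapping. SERPINH1, the collagen chaperone, fell without overlap (log2 −0.47 ± 0.08, adjusted p = 0.00873), and DNAJA1, a partner of HSP70, fell and was lower in 4 of 4 animals (log2 −0.51 ± 0.08, adjusted p = 0.00873). HSPH1, which recharges HSP70, read 1586, 2002, 2924 and 2542 in smoke, against 685, 2909, 4574 and 3957 in air. It fell in S2 to S4 (log2 −0.61 ± 0.07, adjusted p = 0.000863) and was higher in smoke in S1 (log2 1.21), where its air value was the lowest of the 8.

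The gene that rose was FKBP5, a cochaperone induced by glucocorticoids, at 1974, 2063, 1922 and 1946 in smoke, against 1126, 1553, 1627 and 1338 in air (log2 0.40 ± 0.08, adjusted p = 0.0172), above air in all libraries. It lost its call without S4 (adjusted p = 0.105). HSPA1A was not matched by symbol and is not analysed here. Of the 8 subunits of the TRiC chaperonin 0 were called. In S1, 7 of the 11 called genes of the list had the same sign as in S2 to S4.

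ER chaperones fell as well, 7 of 20 with 0 higher, against 2.82% and 2.08% of all genes. Of the 20, 18 were below 0 in pairs S2 to S4 (median −0.253). PDIA4, a protein disulphide isomerase, read 4810.5, 3572, 3691 and 4058 in smoke, against 6631, 5242, 4744 and 7243 in air (log2 −0.58 ± 0.08, adjusted p = 0.00514). It was lower in smoke in 4 of 4 animals, while the groups overlapped. HSP90B1, the ER form of HSP90, fell without overlap, at 14843, 11032, 12854 and 14458 in smoke, against 18709, 15294, 15966 and 21177 in air (log2 −0.44 ± 0.07, adjusted p = 0.00783). HSPA5, the main ER chaperone also called BiP, fell (log2 −0.46 ± 0.08, adjusted p = 0.0111), with a small difference in S1 (log2 −0.04). CRELD2, an ER stress gene, read 793, 398, 380 and 405 in smoke, against 2020, 623, 504 and 884 in air (log2 −0.73 ± 0.12, adjusted p = 0.0094), with the levels of S1 far above the rest in both groups. In S1, 6 of the 7 genes had the same sign. The amino acid stress genes under ATF4 gave 0 calls among 20.

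Genes of the response to low oxygen formed the list with most calls. Under normal oxygen the prolyl hydroxylases EGLN1 and EGLN3 mark hypoxia-inducible factors for breakdown, and EGLN3 is itself induced by them. Of 24 genes tested, 16 fell and 1 rose, against 2.82% and 2.08% of all genes, and the median was −0.485 in pairs S2 to S4. NDRG1, a classical target, read 12904, 24329, 15455 and 19735 in smoke, against 30285, 36462, 28357 and 29199 in air (log2 −0.67 ± 0.08, adjusted p = 0.00137). All smoke values were under all air values. VEGFA, the growth factor for vessels, read 1089, 3193, 1218 and 1650 in smoke, against 1408, 4438, 2280.4 and 2429 in air (log2 −0.65 ± 0.09, adjusted p = 0.00278), lower in smoke in each animal, with S2 the highest in both groups. PFKFB4, a regulator of glycolysis, and EGLN3 fell too and were lower in each animal (log2 −0.61 ± 0.11, adjusted p = 0.0151, and log2 −0.45 ± 0.09, adjusted p = 0.0216). ADM, a vasodilator peptide, had 304, 661, 224 and 358 in smoke, against 688, 772, 569 and 478 in air (log2 −0.66 ± 0.17, adjusted p = 0.0435) and lost its call without S3 (adjusted p = 0.0648).

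In S1 the hypoxia genes parted, and 11 of the 17 called had the same sign. P4HA1, a collagen prolyl hydroxylase, read 758, 2462, 1189.9 and 1506 in smoke, against 796, 3916, 2708 and 2910.4 in air (log2 −0.94 ± 0.09, adjusted p = 0.000468), nearly level in S1. PFKFB3, which raises glycolytic flux, read 566, 938, 366 and 703 in smoke, against 253, 1705, 1121 and 1408 in air (log2 −1.16 ± 0.12, adjusted p = 0.000748), higher in smoke in S1 only. EGLN1 read 365, 431, 261 and 325 in smoke, against 93.0, 548, 478 and 475 in air (log2 −0.59 ± 0.11, adjusted p = 0.0152), with the S1 air library the lowest. The exception in direction was EPAS1, the gene of an alpha subunit of hypoxia-inducible factor, at 12289, 4993, 5538 and 8828 in smoke, against 1457, 4024, 4494 and 5272 in air. EPAS1 was higher in smoke in 4 of 4 animals (log2 0.45 ± 0.09, adjusted p = 0.0167), most of all in S1, and lost its call without S4 (adjusted p = 0.0898).

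Glycolytic enzymes, many of which depend on the same factors, fell in part, 5 of 17 with 0 higher and a median of −0.235. PFKP, a phosphofructokinase, read 2161, 4526, 2970.1 and 3190.5 in smoke, against 4509.5, 6513, 5742 and 4676 in air (log2 −0.68 ± 0.09, adjusted p = 0.00185), ENO2, an enolase, 53.1, 327, 200 and 351 in smoke, against 138, 512, 379.6 and 522 in air (log2 −0.71 ± 0.10, adjusted p = 0.00531), and SLC16A3, a lactate exporter, 959, 2122, 839 and 1417 in smoke, against 2648, 2833, 1469 and 1899.6 in air (log2 −0.55 ± 0.09, adjusted p = 0.0073). Each was lower in smoke in 4 of 4 animals, while the groups overlapped. ALDOC, an aldolase, fell too (log2 −0.46 ± 0.10, adjusted p = 0.0293), and HK2, a hexokinase, fell in S2 to S4 (log2 −0.69 ± 0.08, adjusted p = 0.00101) but not in S1 (log2 1.07).

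The 13 protein genes of the mitochondrial genome moved up together in S2 to S4. All 13 were above 0 there, with a median of 0.449, and 9 rose. ND1, a subunit of respiratory complex I, had 46823, 28353, 38423 and 37104 in smoke, against 89409, 21109, 26810 and 21578 in air (log2 0.58 ± 0.08, adjusted p = 0.00453). COX3, of complex IV, had 60821, 47604, 62088 and 55609 in smoke, against 122630, 35047, 46777 and 33397 in air (log2 0.53 ± 0.09, adjusted p = 0.00786), and ATP8, of the ATP synthase, 3631, 2671, 3121 and 3162 in smoke, against 5679.7, 2101, 2415 and 1960.2 in air (log2 0.47 ± 0.08, adjusted p = 0.00982, lost without S4 at adjusted p = 0.0509). Among S2 to S4 each smoke value of ND1 lay above each air value, and in S1 the air library had the highest value of the 8 (log2 −0.93). The list's median in S1 was −1.01. Mitochondrially encoded genes held 4.13 to 4.97% of all values in smoke libraries, against 2.95 to 3.67% in the air libraries of S2 to S4 and 8.49% in that of S1, so the shares of S2 to S4 moved with the exposure as the depths did, and the part of depth in this result was not tested. Of 33 respiratory chain genes in the nucleus 0 were called (median 0.1), and of 58 cytosolic ribosomal protein genes 0 (median 0.0789, −1.2 in S1). Mitochondrial reads may be shared with nuclear copies of these genes, which the table cannot resolve.

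**Figure D3:**
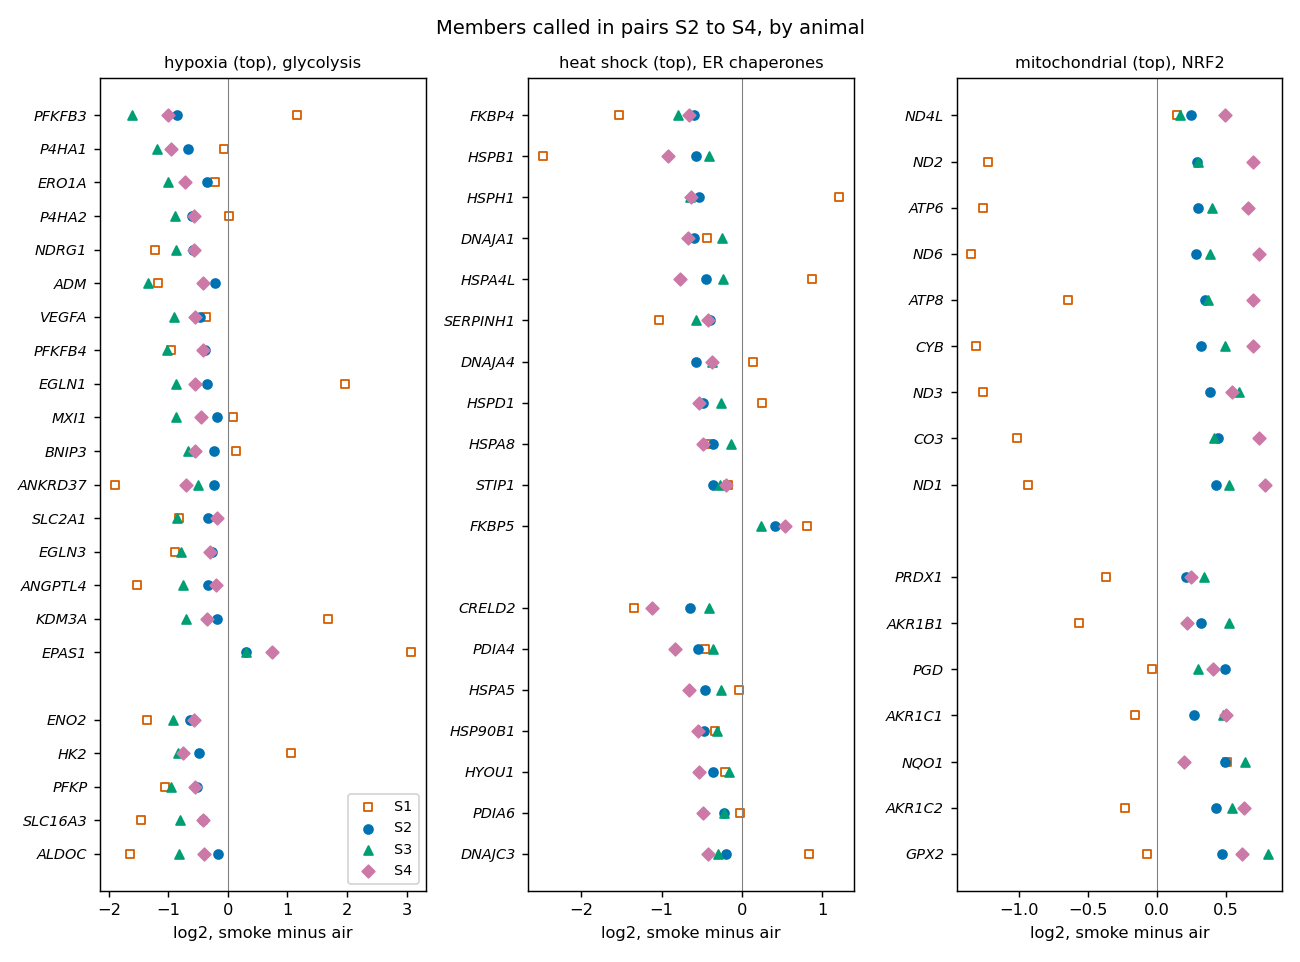
Difference of wood smoke minus filtered air on the log2(value + 1) scale in each animal, for the members called in pairs S2 to S4 of 6 gene lists, 2 lists per panel. Open squares are S1, circles S2, triangles S3 and diamonds S4. The hypoxia, glycolysis and chaperone members lie left of 0 in S2 to S4 except EPAS1 and FKBP5, and the mitochondrial and NRF2 members lie right of 0, while S1 lies on both sides.

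Some genes of sterol and protein synthesis rose. Of 23 cholesterol synthesis genes 5 rose and 0 fell (median 0.188). MVK, mevalonate kinase, read 577, 482, 501 and 426 in smoke, against 420, 353, 254 and 265 in air (log2 0.70 ± 0.11, adjusted p = 0.00793), with all smoke values above air. INSIG1, which holds the sterol sensor in the ER, read 2776, 4448, 2845 and 1914 in smoke, against 1191, 3815, 1431 and 1479 in air (log2 0.53 ± 0.12, adjusted p = 0.0275). HMGCS1, an early enzyme of the pathway, rose (log2 0.48 ± 0.11, adjusted p = 0.0292), with an S1 difference of 2.65, and ACAT2 rose too (log2 0.50 ± 0.09, adjusted p = 0.0119). Of 20 aminoacyl tRNA synthetases, which charge transfer RNAs, 5 rose and 0 fell, and 19 were above 0 (median 0.164). GARS1 had 1103, 857, 962 and 828 in smoke, against 679, 638, 673 and 632 in air (log2 0.44 ± 0.08, adjusted p = 0.0119), again without overlap, and WARS1 and AARS1 rose too (log2 0.38 ± 0.07, adjusted p = 0.0119, and log2 0.37 ± 0.08, adjusted p = 0.0281). AARS1 lost its call without S4 (adjusted p = 0.0632). In S1, 4 of the 5 called cholesterol genes and 2 of the 5 called synthetases had the same sign. ACAT2 and WARS1 were at log2 −0.07 and −0.03 there.

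A few proteasome subunits rose by small amounts. Of 40 tested, 39 were above 0 in S2 to S4 with a median of 0.183, and 5 rose, against 2.08% of all genes. PSMD1, a scaffold subunit of the regulatory particle, read 2004, 2036, 1898 and 2010.4 in smoke, against 1932, 1509, 1586 and 1509.9 in air (log2 0.37 ± 0.07, adjusted p = 0.0175), and lost its call without S4 (adjusted p = 0.0812). In S1 the median of the list was −0.521. TFRC, the transferrin receptor for iron uptake, had 1637, 1152, 868 and 881 in smoke, against 327, 705, 451 and 455 in air. It rose 1.82-fold (log2 0.87 ± 0.09, adjusted p = 0.000525), all smoke values were above all air values, and the S1 pair was at log2 2.32.

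Cell cycle genes rose in part. In bulk libraries of this kind, more or fewer cells of a type and more or less RNA per cell cannot be told apart. Of 22 mitosis genes all were above 0 in pairs S2 to S4 (median 0.548), and 3 rose, namely MKI67, TOP2A and CDC20. MKI67, the proliferation marker, read 410.4, 59.8, 167 and 179.5 in smoke, against 59.7, 31.5, 95.03 and 56.5 in air (log2 1.12 ± 0.20, adjusted p = 0.0111). It was higher in smoke in each animal, with levels that differed widely between animals, and lost its call without S4 (adjusted p = 0.0541). CDC20, an activator of the anaphase complex, read 298, 69.0, 285 and 262 in smoke, against 286, 21.1, 131 and 161 in air (log2 1.16 ± 0.18, adjusted p = 0.00747), and TOP2A, a topoisomerase of dividing cells, 517, 102, 570 and 453 in smoke, against 388, 71.4, 295 and 299 in air (log2 0.68 ± 0.12, adjusted p = 0.0119). Of 23 DNA replication genes 2 rose, the ribonucleotide reductase subunits RRM1 (log2 0.34 ± 0.08, adjusted p = 0.0392) and RRM2 (log2 0.68 ± 0.16, adjusted p = 0.0353). RRM1 lost its call without S3 (adjusted p = 0.0802) or S4 (0.130), and RRM2 without S3 (0.0788). Cell cycle genes outside these lists went both ways, and those named here were picked after their values were seen. TRIP13 (log2 1.10), CDC25B (0.96), KIF20B (0.88) and the chromatin assembly subunit CHAF1A (0.87) rose, and each was also higher in smoke in S1. CCND1 (log2 −0.44) and CDK6 (−0.79) fell, and were at log2 −0.56 and 2.80 in S1.

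Some of the same genes serve the building of many centrioles in cells that become multiciliated. Of 19 multiciliogenesis regulators 3 rose (median 0.278, 1.14 in S1). CDC20B, whose locus is switched on in these cells, read 632, 78.0, 233.6 and 246 in smoke, against 125, 55.7, 92.0 and 119 in air (log2 0.95 ± 0.18, adjusted p = 0.0132). PLK4, the kinase that starts a centriole, read 451, 66.6, 589 and 326 in smoke, against 109.8, 50.4, 140 and 228 in air (log2 0.99 ± 0.25, adjusted p = 0.0447), and CCNO, a cyclin needed for centriole amplification, 416, 82.9, 553 and 411 in smoke, against 376, 67.3, 182 and 245 in air (log2 0.88 ± 0.20, adjusted p = 0.0276). Each was higher in smoke in 4 of 4 animals, with S2 the lowest in both groups, and PLK4 and CCNO lost their calls without S3 (adjusted p = 0.146 and 0.0569). The motile cilium list gave 1 call among 27, DNAH6, which fell, where 4.90% of all genes were called. Outside it CCDC65 (log2 0.50), RSPH14 (0.52), SPAG8 (0.55) and KIF9 (0.52) rose and DNAH10 (−0.28) fell, all genes of motile cilia picked after their values were seen. Transport and BBSome genes gave 1 among 23, IFT22, which rose. FOXJ1, the master regulator of motile cilia, did not pass (log2 0.28 ± 0.09, adjusted p = 0.0904).

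Markers of the cell types checked what the libraries held. Of 7 basal cell markers 5 were matched, and their summed level was 30650 to 37210 in smoke, against 29370 to 38980 in the air libraries of S2 to S4 and 52950 in that of S1. For all such sums the smoke range covers S1 to S4, so it is not over the same animals as the air range of S2 to S4. The sum of 6 multiciliated cell markers was 7065 to 25900 in smoke, against 9120 to 22710 in the air libraries of S2 to S4 and 6468 in that of S1. KRT5, a keratin of basal cells, read 30523, 28815, 25245 and 27199 in smoke, against 46084, 27725, 31595 and 23738 in air (log2 −0.02 ± 0.09, adjusted p = 0.911). The club cell gene SCGB1A1 was measured at 26.2, 8.31, 39.8 and 17.0 in smoke, against 42.8, 18.1, 37.7 and 11.4 in air. The mucin MUC5B read 8414, 32.9, 2021 and 4346 in smoke, against 3397, 48.3, 2631 and 3667 in air, with S2 the lowest in both groups, and did not pass (adjusted p = 0.317). Summed secretory markers were 16.6 to 752 in smoke, against 19.3 to 79.1 in the air libraries of S2 to S4 and 1710 in that of S1. Ionocyte, tuft and neuroendocrine markers summed to at most 7.10. None of the 16 basal cell, 12 goblet and 6 epithelial genes tested was called. Below 0 in pairs S2 to S4 were 15 of the 16, 8 of the 12 and 5 of the 6, with medians of −0.171, −0.0951 and −0.195. The basal cell median was −0.104, −0.108, −0.403 and 0.0175 in S1 to S4.

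Of other cell types, the fibroblast markers DCN, LUM and PDGFRB, the endothelial CDH5 and the smooth muscle DES were under 1 in all 8 libraries, and the leukocyte marker PTPRC did not exceed 1.69. All 7 fibroblast markers together summed to 564 to 671 in smoke, against 564 to 684 in the air libraries of S2 to S4 and 378 in that of S1. The 4 leukocyte markers gave 364 to 908, against 609 to 914 and 907 in the air libraries in that order, the 3 endothelial ones 120 to 245, against 98.1 to 262 and 181.5, and the 2 of smooth muscle 34.1 to 122, against 20.1 to 79.9 and 76.7. KDR, a VEGF receptor best known from endothelium, was nevertheless measured at 6812, 16230, 9719 and 14238 in smoke, against 3525, 19634, 16834 and 20429 in air. It fell in S2 to S4 (log2 −0.53 ± 0.09, adjusted p = 0.00976) and was higher in smoke in S1 (log2 0.95).

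TPH1, the enzyme that makes serotonin, was the 1 gene of the rare cell type list above the filter. It read 52.4, 146, 4.79 and 63.0 in smoke, against 8.05, 39.9, 0 and 17.8 in air and rose in S2 to S4 (log2 2.05 ± 0.34, adjusted p = 0.00918), with smoke above air in 4 of 4 animals at levels that ran from S3 to S2.

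Some signalling genes fell, in most lists 1 gene each, to be read against 2.82% lower of all genes tested. Of 22 immediate early genes 1 fell, FOS, with 490.1, 506, 337 and 534 in smoke, against 797, 986, 697 and 886 in air (log2 −0.91 ± 0.09, adjusted p = 0.000525) and all smoke values under all air values. ID1, an inhibitor of differentiation factors induced by bone morphogenetic proteins, read 655, 1297, 789.7 and 1001 in smoke, against 2359, 2409, 1809.8 and 1942 in air. It fell 2.02-fold (log2 −1.01 ± 0.08, adjusted p = 0.000167), also without overlap. ID2 and ID3, picked after their values were seen, fell too (log2 −0.58 and −0.56) and were lower in smoke in S1. Of 17 genes of the EGF receptor, its ligands and its feedback 4 fell and 0 rose, namely TGFA, DUSP4, ERRFI1 and PHLDA1. DUSP4, a phosphatase of the MAP kinases, read 2726, 5144, 2024 and 3371 in smoke, against 3172, 6672, 3956 and 4754 in air (log2 −0.61 ± 0.10, adjusted p = 0.00762), and PHLDA1 147, 159.6, 44.1 and 142 in smoke, against 134, 242, 113 and 259 in air (log2 −0.93 ± 0.16, adjusted p = 0.0102), lower in S2 to S4 and slightly higher in smoke in S1. Of the 4, DUSP4 alone had the same sign in S1, where TGFA was at log2 1.94 and ERRFI1 at 0.32. The ephrin receptor gene EPHA2 fell, with 2346, 2655, 2549 and 2421 in smoke, against 3247, 3738, 3269 and 3302 in air (log2 −0.43 ± 0.07, adjusted p = 0.00689), and the Notch ligand gene JAG2 fell (log2 −0.42 ± 0.08, adjusted p = 0.0153), both without overlap. EPHA2 was the 1 gene called among 13 Eph receptor and ephrin genes (median −0.000632), and JAG2 the 1 among 15 Notch genes (median −0.0641). JAG2 lost its call without S4 (adjusted p = 0.107).

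Inflammatory genes gave 1 call among 18, IL1RN, the antagonist of interleukin 1, which fell (log2 −0.55 ± 0.10, adjusted p = 0.0116), with 156, 655, 186 and 225 in smoke, against 291, 881, 295 and 335 in air and S2 far above the others in both groups. Interferon-stimulated genes gave 1 among 25, OAS1, lower. For both lists this is near the 4.90% called of all genes tested. In secreted defence, S100A8 and S100A9, which pair as calprotectin, rose in S2 to S4 (log2 0.88 ± 0.16, adjusted p = 0.0132, and log2 0.46 ± 0.08, adjusted p = 0.00891). S100A9 had 2715, 1703, 1752 and 1606 in smoke, against 4551, 1234, 1177 and 1278 in air. S1 had more than the other animals in both groups and was lower in smoke (log2 −0.75). The complement gene C3 fell (log2 −0.49 ± 0.12, adjusted p = 0.0425), and lost its call without S2 (adjusted p = 0.0532).

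Structural genes gave calls in some lists and none in others, against 2.82% lower and 2.08% higher of all genes tested. ACTG1, a cytoskeletal actin with many pseudogene copies, fell without overlap, with 17301, 19859, 17410 and 16877 in smoke, against 29856, 26473, 22889 and 25290 in air (log2 −0.46 ± 0.07, adjusted p = 0.00689), as 1 of 3 among 23 actin cytoskeleton genes. KRT13, a keratin of stratified epithelium, fell (log2 −0.32 ± 0.07, adjusted p = 0.0256), 1 of 2 among 11 squamous genes, and lost its call without S2 (adjusted p = 0.0834) or S4 (0.0633). TIMP3, an inhibitor of matrix proteases, rose, with 399, 446, 372 and 348 in smoke, against 253, 309.9, 219 and 228 in air (log2 0.63 ± 0.10, adjusted p = 0.00873), the 1 gene called among 30 of the matrix. Of 22 junction genes, 20 ion channel and transporter genes and 19 targets of p53, 0 were called in either direction. HLF was the 1 gene that rose among 17 of the circadian clock, and MBD4, a DNA glycosylase, the 1 among 12 of DNA methylation.

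Further large changes were found among genes with a mean of at least 50 that moved the same way in 4 of 4 animals. Of those higher in smoke, HROB, a factor that loads helicases in DNA repair, read 117, 23.8, 86.3 and 78.7 in smoke, against 46.7, 5.26, 19.6 and 37.6 in air (log2 1.71 ± 0.29, adjusted p = 0.00982). TXNRD3, a thioredoxin reductase of the testis, read 79.6, 37.96, 81.2 and 105 in smoke, against 9.62, 23.3, 23.8 and 50.2 in air (log2 1.15 ± 0.25, adjusted p = 0.0241). TESMIN (log2 1.30 ± 0.29, adjusted p = 0.0275), CKAP2L, a spindle protein (log2 1.05 ± 0.22, adjusted p = 0.0234), C2H3orf70 (log2 0.86 ± 0.20, adjusted p = 0.0301) and RAB12, a small GTPase (log2 0.77 ± 0.18, adjusted p = 0.037), followed. RAB12 and C2H3orf70 had all smoke values above all air values. With a further animal left out, TXNRD3 and CKAP2L lost their calls without S3 (adjusted p = 0.0572 and 0.0830), C2H3orf70 without S4 (0.0890) and RAB12 without S2 (0.121) or S4 (0.0654).

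Of those lower in smoke, CELF4, an RNA-binding protein best known from neurons, read 69.7, 97.0, 98.8 and 127 in smoke, against 449.9, 233, 185 and 271 in air (log2 −1.08 ± 0.13, adjusted p = 0.00181), and WNT10A, a Wnt ligand, 110, 191, 92.0 and 227 in smoke, against 579, 329.8, 269 and 311 in air (log2 −0.92 ± 0.17, adjusted p = 0.0143). RCOR2, a corepressor of the CoREST family, had 45.7, 85.3, 73.2 and 103 in smoke, against 166, 209, 116 and 198 in air (log2 −0.96 ± 0.16, adjusted p = 0.00892). In these 3 every smoke value was under every air value. CEACAM7, an adhesion molecule, had 96.2, 14.8, 74.4 and 19.9 in smoke, against 159, 44.9, 187 and 62.3 in air (log2 −1.49 ± 0.21, adjusted p = 0.00453), with levels that differed several-fold between animals. PPP1R3G, which targets a phosphatase to glycogen (log2 −1.13 ± 0.20, adjusted p = 0.0102), IL1RL1, the receptor for interleukin 33 (log2 −1.31 ± 0.25, adjusted p = 0.0152), IGFBP6, which binds insulin-like growth factors (log2 −0.63 ± 0.15, adjusted p = 0.0339), and FGF11 (log2 −0.98 ± 0.21, adjusted p = 0.0231) were lower in smoke in each animal, with overlap between groups. These 4 kept their calls when S2, S3 or S4 was left out as well.

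**Figure D4:**
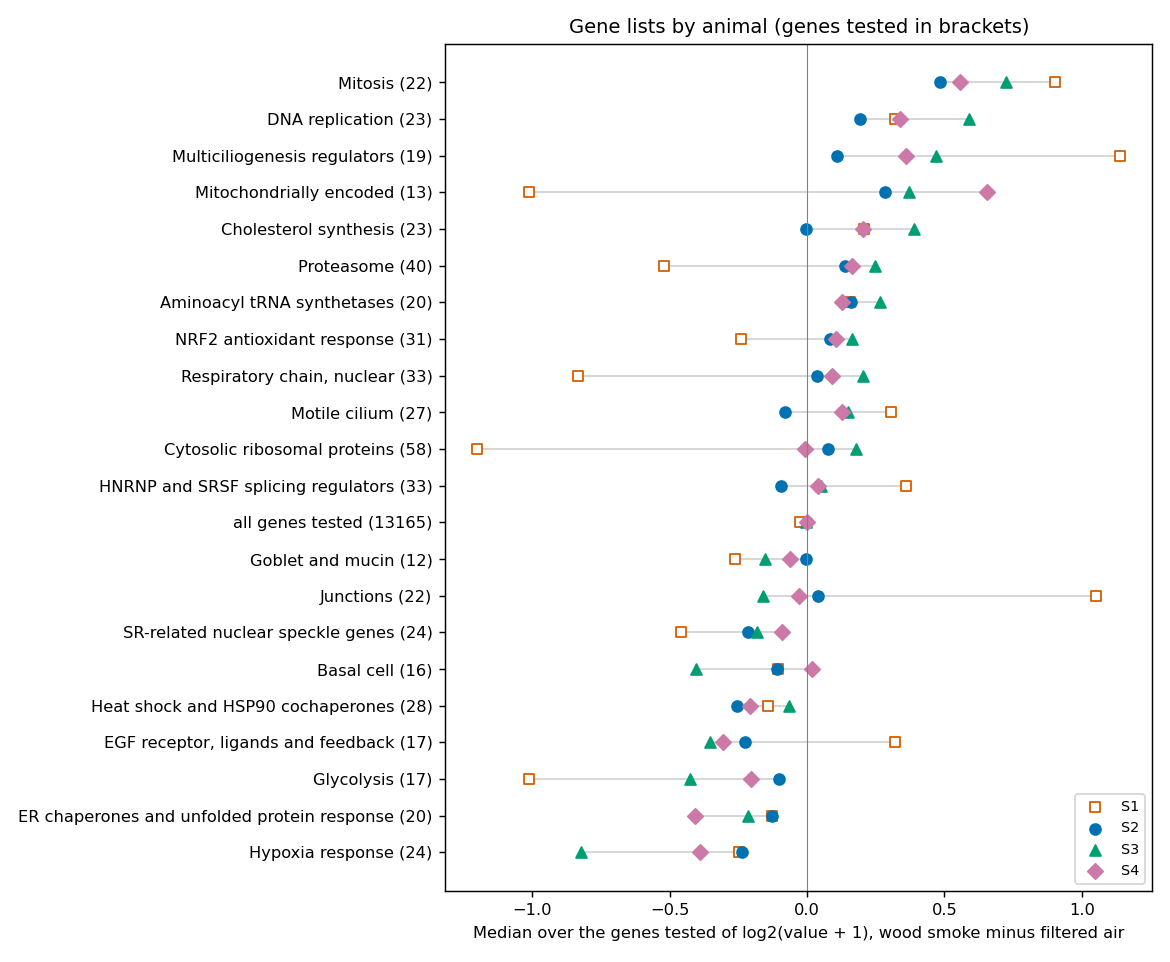
Median difference of wood smoke minus filtered air over the genes tested in each of 21 lists and in all genes, 1 marker per animal, with the number of genes in brackets. Open squares are S1, circles S2, triangles S3 and diamonds S4. The hypoxia median is below 0 in all 4 animals, the mitosis median above 0 in all 4, and S1 stands apart for mitochondrially encoded, ribosomal protein, respiratory chain and junction genes.

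The difference between smoke and air at 5 days was also set against that after 1 day of exposure, in the same animals, by a test of the difference itself. These contrasts share the 5-day libraries with the results above. With all 4 animals 3 genes (0.0228%) passed and 1073 had an unadjusted p under 0.05. They were CYP26A1 (5-day minus 1-day difference −1.36 ± 0.15, SE, adjusted p = 0.0338), KLF6, a zinc finger factor of injury responses (−1.52 ± 0.13, adjusted p = 0.0116), and RGS2, a brake on G protein signalling (1.44 ± 0.16, adjusted p = 0.0338). CYP26A1 was at log2 0.31 after 1 day. KLF6 was at 1.49 after 1 day and did not pass at 5 days (log2 −0.05 ± 0.08, adjusted p = 0.795). RGS2 was at −0.71 after 1 day and read 257, 201, 288 and 273 in smoke, against 170, 105, 169.6 and 172 in air at 5 days, above air in all libraries (log2 0.78 ± 0.12, adjusted p = 0.00712).

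Without S1, 181 genes (1.37%) passed the test of 5 days against 1 day, 50 with a higher and 131 with a lower difference at 5 days. Of the 24 hypoxia genes 7 had a lower one and 1, EPAS1 (0.58 ± 0.10, adjusted p = 0.0146), a higher one, with VEGFA at −0.98 ± 0.12, adjusted p = 0.00149, and NDRG1 at −0.54 ± 0.09, adjusted p = 0.00858. Of the 17 glycolytic genes 5 had a lower one, among them PFKP (−0.61 ± 0.10, adjusted p = 0.0105). RSRP1 (−1.33 ± 0.17, adjusted p = 0.00153), EIF4A2 (−0.45 ± 0.07, adjusted p = 0.00782) and EPHA2 (−0.75 ± 0.07, adjusted p = 0.00023) also had a lower difference at 5 days than at 1 day, and MKI67 (1.59 ± 0.20, adjusted p = 0.00153) and TFRC (0.69 ± 0.12, adjusted p = 0.00966) a higher one. CYP1B1 did not pass (−0.17 ± 0.47, adjusted p = 0.911), nor did HNRNPDL (−0.15 ± 0.08, adjusted p = 0.423), PDIA4 (−0.07 ± 0.11, adjusted p = 0.815) or CRELD2 (−0.23 ± 0.16, adjusted p = 0.554), whose differences after 1 day, over 4 animals, were log2 2.82, 0.83, −0.47 and −0.45.

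A further set of cultures had 5 days of exposure and then 7 days of recovery. Set against these, the 5-day difference passed in 35 genes (0.266%) with all 4 animals, 19 higher and 16 lower at 5 days, and 2060 had an unadjusted p under 0.05. Without S1 it passed in 1689 (12.8%), 826 higher and 863 lower. RSRP1, at log2 0.48 after recovery, differed by −2.44 ± 0.22, adjusted p = 0.00528 with all 4 animals. EIF4A2 (−1.01 ± 0.11, adjusted p = 0.0166), NKTR (−0.97 ± 0.15, adjusted p = 0.0387), PFKFB4 (−2.27 ± 0.26, adjusted p = 0.0166), CRELD2 (−1.84 ± 0.23, adjusted p = 0.0251) and PDIA4 (−1.15 ± 0.16, adjusted p = 0.0362) were below air at 5 days and, over 4 animals, at log2 0.28, 0.38, 1.58, 0.95 and 0.60 after recovery. HNRNPDL (1.08 ± 0.15, adjusted p = 0.0362) and FKBP5 (0.99 ± 0.15, adjusted p = 0.0387) were above air at 5 days and at −0.28 and −0.49 after recovery. Without S1, 15 of 20 ER chaperones and 16 of 28 heat shock genes had a lower difference at 5 days than after recovery. A higher one was found in 0 and 3 of them, and in 15 of 22 mitosis genes and 8 of 16 basal cell genes. Over 4 animals MKI67 and KRT5 were at log2 −1.86 and −1.22 after recovery. CYP1B1 was at log2 0.07 after recovery (2.57 ± 0.46, adjusted p = 0.0597 with all 4 animals, and 2.59 ± 0.40, adjusted p = 0.000934 without S1).

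**Figure D5:**
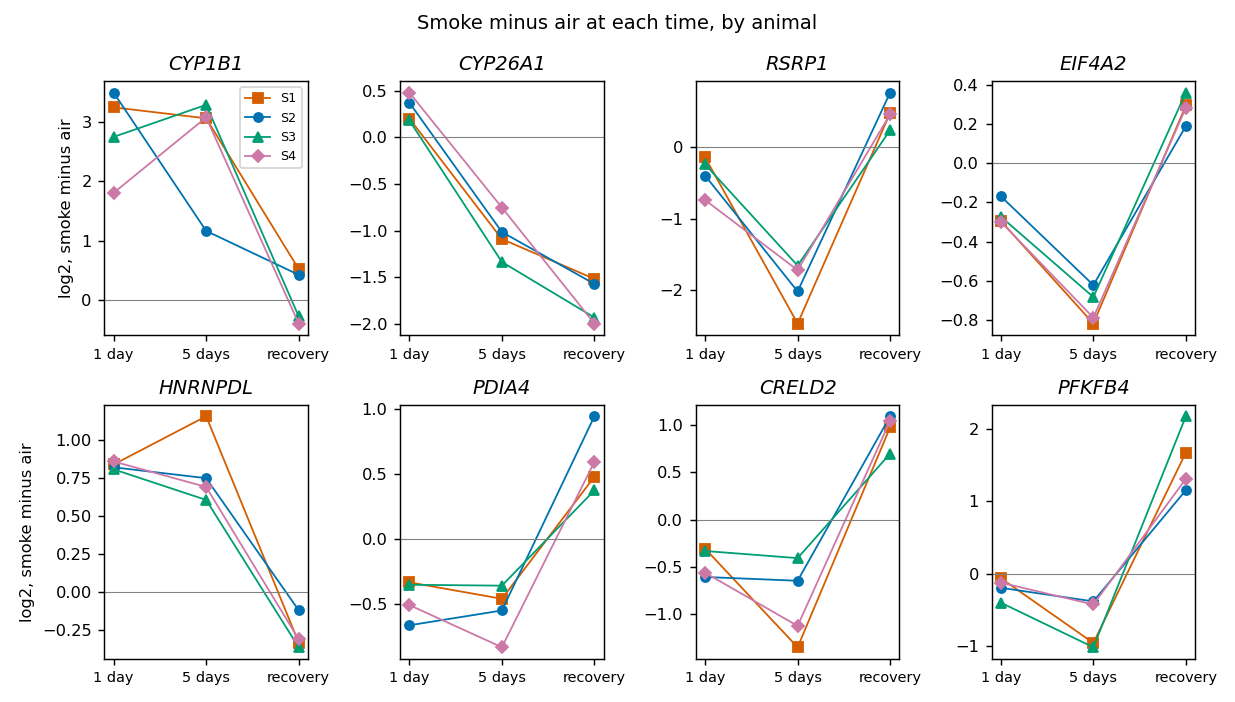
Difference of wood smoke minus filtered air on the log2(value + 1) scale for 8 genes after 1 day, after 5 days and after 5 days with 7 days of recovery, 1 line per animal. CYP1B1 is above 0 at 1 and 5 days in all animals, RSRP1, EIF4A2, PDIA4, CRELD2 and PFKFB4 are below 0 at 5 days and above 0 after recovery, and CYP26A1 falls below 0 from 5 days on.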

How the data were processed

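The deposited table holds RNA-seq values of poly-A libraries, made by the authors with FastQC, Trim Galore, Bowtie2 and RSEM per the submitters' processing notes. Genome build, annotation and normalization tool: not given in the sources used here. The table is named for raw counts, but the deposited values are fractional signal values, that is, normalized counts, so a count test could not be used and limma took its place. From 79.7 to 82.9% of low values per library were whole multiples (within 0.1) of what 1 read is worth, which gave approximate depths only.

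Values were tested on log2(value + 1) with limma 3.58.1 in R 4.3.3 (trended variance, animal as a block), and fold changes on this scale understate those of low genes. Figures and tables used Python 3.11.15. The labels give the same animal under both exposures, so the libraries are paired by design. Deviations of smoke and air libraries from their group means correlated at 0.348 to 0.693 for the same animal, and at −0.305 to −0.081 for different animals. Taking out the group means pushes the values of different animals below 0 where those of the same animal are above it. The test between times took each animal at each time as a block. The models were tested on simulated data. Of 35432 gene IDs, 23817 carried a symbol and 720 more took one from the reference table.

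The members and the gene lists were chosen with earlier results of these data known. Named genes are the 12 per direction with the largest change over 4 pairs (mean of at least 50, unadjusted p under 0.05 there, called in pairs S2 to S4, same sign in 4 of 4 animals), up to 4 members per list with the lowest p over 4 pairs, and a set of genes always given. No gene passed both fits. CYP26B1, RARB, RARG, HSPH1, HSPA5, PFKFB3, P4HA1, EPAS1, EGLN1, HK2, ADM, CCNO, CDC20, S100A8, S100A9, KLF6, RGS2, AHR, RBM39, TRA2A, COX3, ACAT2 and EIF4A1 fall outside this rule and were chosen after their values were seen, as were members named only to spell out a list's calls. Alternatives covered the block, library weights, pseudocount, filter, scaling, threshold and left-out animals. Promoter motifs were not analysed here.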

Additional observations from a re-analysis of the deposited data

Results flagged for a closer look

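Of 216 groups of 4 values tested, 27 held a value whose gap to its nearest neighbour took more of the range than Dixon's 95% critical value for 4 values allows, and chance gives about 1 in 20. Of the 27, 14 were in the air library of S1 and 3 in its smoke library. The air library of S1 stood apart in approximate depth (9.46 M reads), in the share of mitochondrially encoded genes (8.49%) and of ribosomal protein genes (3.64%), in the share of the 10 highest genes (18.2%) and in its median correlation with the other 5-day libraries (0.858). Among genes it was apart in FKBP4 (3291), SERPINH1 (1746), ND1 (89410), COX3 (122600), ATP8 (5680), S100A8 (632.1) and S100A9 (4551), all high, and in EGLN1 (93) and RBM39 (879.6), both low. The smoke library of S1 was apart, and high, in CRELD2 (792.6), S100A9 (2715) and C2H3orf70 (113.5).

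S2 stood apart in smoke in CYP1B1 (147.5) and CDC20 (69.05), both low, and IL1RN (655.4), high. In air S2 stood apart in ALDH1A3 (3620), INSIG1 (3815), EPHA2 (3738), IL1RN (880.9) and PPP1R3G (244.8), all high, and in RGS2 (105.2), low. S3 stood apart in smoke in PHLDA1 (44.05), low.

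By the limma test between times with all 4 animals, the log2 smoke effect at 5 days minus that at 1 day was −1.36 for CYP26A1, −1.52 for KLF6 and 1.44 for RGS2. The effect at 5 days minus that after recovery was below 0 for RSRP1 (−2.44), PFKFB4 (−2.27), PPP1R3G (−1.98), CRELD2 (−1.84), EGLN3 (−1.17), PDIA4 (−1.15), EIF4A2 (−1.01), NKTR (−0.971), DNAJA1 (−0.911) and HSP90B1 (−0.854). It was above 0 for TIMP3 (1.25), HNRNPDL (1.08), FKBP5 (0.992), GARS1 (0.926) and HNRNPD (0.913). These values share the 5-day libraries with each other and with the report, and the 5-day libraries include the air library of S1.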

How the results depend on the processing

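The count over 4 pairs was 0 by limma under 11 alternatives, with 372 to 1053 genes at an unadjusted p under 0.05. It was 548 with array weights (272 higher, 276 lower), 266 with all 24 libraries and the replicate block (141 and 125), 919 with 23 libraries, the outlying air library left out (434 and 485), and 0 to 645 with 1 animal left out. In pairs S2 to S4 the count of 645 became 0 without the replicate block (783 at an unadjusted p under 0.05), 0 without the filter on low values (2783 at an unadjusted p under 0.05 among 19969 genes), 1368 at an adjusted p under 0.1, 299 with a log2 change of at least 0.5 as well, and 359 to 1084 with a further animal left out. A filter of 1 in place of 10, chosen after seeing the data, gave 493. The other 7 alternatives gave 618 to 948. The cause of these differences was not tested.

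Of the 102 genes given with values, 93 were called in pairs S2 to S4. Of these, 85 kept the call under every alternative pseudocount, scaling, weighting, variance moderation and minimum value (1 or 50) that still tested them, at the same threshold, 70 kept it in every omission, and 0 kept it without the pairing.

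The test of 5 days minus 1 day gave 5 calls with an additive replicate block, 0 with no replicate block (339 at an unadjusted p under 0.05) and 181 without S1. That of 5 days minus recovery gave 103, 1 and 1689. The mean difference of CYP1A1 was 2.03 with p = 0.125 paired and 2.03 with p = 0.0286 unpaired, by exact permutation tests, and 1.66 to 2.38 with 1 animal left out.

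The direction over 4 pairs turned for some genes, none of them called there. With array weights TIPARP was at −0.0278, CYP26B1 at −0.864, RARB at −0.455, EGLN1 at −0.517, MUC5B at −0.147 and KRT5 at 0.0189. With 23 libraries TIPARP was at −0.106, CYP26B1 at −1.04, RARB at −0.41, EGLN1 at −0.538 and MUC5B at −0.232. CYP26B1 was at −0.01 with a pseudocount of 5, and KLF6 was at 0.0493 and AHR at 0.0507 with equal library totals. With 1 animal left out the ranges were −0.0815 to 0.394 for TIPARP, −1.07 to 0.969 for CYP26B1, −0.501 to 0.423 for RARB, −0.607 to 0.0113 for HSPH1, −0.587 to 0.356 for EGLN1, −0.226 to 0.391 for MUC5B, −0.529 to 0.0516 for KDR, −0.0753 to 0.0143 for KLF6, −0.378 to 0.176 for AHR and −0.0538 to 0.529 for COX3. In pairs S2 to S4 KRT5 was at 0.0379 with array weights and 0.00515 with equal totals, and SCGB1A1 at 1.81e-06 with array weights. With a further animal left out the ranges were −0.155 to 0.0314 for TIPARP, −0.134 to 0.126 for KRT5, −0.48 to 0.309 for SCGB1A1 and −0.129 to 0.00534 for KLF6. None of these 4 genes was called in pairs S2 to S4.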
